A study of Capsicum chinense with 22 samples.

Results

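Here 4 genes of chlorophyll breakdown were followed through fruit ripening in *Capsicum chinense*, namely a STAY-GREEN-like gene (LOC107866321), a pheophorbide a oxygenase (LOC107847505, hereafter PAO), a cytochrome P450 89A2-like gene (LOC107862942) and chlorophyllase-2 (LOC107853614). They were taken by their gene IDs, 4 of the 16922 genes in the deposited expression table. The STAY-GREEN-like gene and the P450 are also among the genes that the study itself picked as highly variable in these libraries, so their large changes are not independent evidence of a direction. RNA-seq was made from fruit pericarp of greenhouse plants with no treatment, and the 22 libraries form 8 groups of one accession at one age in days after anthesis (DAA). At 60 DAA there were 2 libraries of Hab, 3 of A101, 3 of Biq and 3 of A18, and at 20 DAA there were 3 of Hab, 3 of A101, 3 of Biq and 2 of A18. Hab (Habanero, commercial) bears red, pungent ripe fruit, A101 yellow and pungent fruit, Biq (Biquinho, commercial) red and non-pungent fruit, and A18 yellow and non-pungent fruit. Each colour and each pungency class was therefore represented by 2 accessions, and each accession by 1 genotype, so that colour or pungency cannot be told apart from other differences between these accessions. According to the study's methods, a replicate was fruit of a single plant, and reads were quantified against the genome of another species, *C. annuum* Zunla-1. The study warns of a potential bias in its comparison by fruit colour, because this reference is red-fruited.

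Chlorophyll is dismantled in the plastid in a fixed order. Chlorophyll b is first reduced to chlorophyll a by the reductases NYC1 and NOL and by 7-hydroxymethyl chlorophyll a reductase, STAY-GREEN proteins then take out the central magnesium, and pheophytinase cuts off the phytol tail. PAO opens the ring of the resulting pheophorbide a, red chlorophyll catabolite reductase acts on the product, and the colourless catabolites are modified further, in Arabidopsis by TIC55 and by a P450 of the CYP89A family. Chlorophyllase also removes phytol in the test tube, but in Arabidopsis leaves it is dispensable for senescence. In pepper, the loss of chlorophyll accompanies the conversion of chloroplasts to chromoplasts, and mutation of a STAY-GREEN gene is known to leave ripe fruit with retained green pigment.

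The values are variance-stabilized expression on a log2-like scale, each gene set relative to its own mean over the 22 libraries, so that 0 is the average library and a difference of 1 approaches 1 log2 unit for well-counted genes. Because of the centring, each gene can be followed from group to group, whereas one gene's level cannot be ranked against another's, and sequencing depth cannot be read from these values. A stage change is the mean at 60 DAA minus the mean at 20 DAA. It was called at a Benjamini-Hochberg adjusted p under 0.05 over all genes (limma) with a size of at least 1. The p-values measure the spread between these libraries. In bulk tissue, fewer cells of a type and less RNA per cell cannot be told apart.

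Within groups, libraries differed by a distance between 23.01 and 67.3 over all genes in 20 pairs, with a median of 40.3, and the largest was between Hab libraries a and b at 20 DAA (letters follow column order). Capsanthin/capsorubin synthase, the enzyme that makes the red pepper carotenoids and a marker of ripeness, was between 4.90 and 7.10 at 60 DAA and between -6.74 and -4.63 at 20 DAA. Averaged over 6 genes listed as seed markers, libraries ran from -0.47 to 1.78 at 60 DAA and from -0.68 to -0.45 at 20 DAA. LOC107842481 and LOC107864410, named vicilin-like seed storage protein, changed by -0.44 and 0.38 on average over accessions, under the minimum size. Of the 6, 4 were called higher at 60 DAA in that average. They were LOC107840434, LOC107851375 and LOC107860009, named late embryogenesis abundant, and LOC107854665, named vicilin C72-like. Many libraries were at the gene's lowest value, so the sizes are uncertain. This held for 12 of the 22 libraries for LOC107860009, 11 for LOC107854665, 11 for LOC107840434 and 6 for LOC107851375. By accession, the average of the 6 genes was 1.20 in A101, 0.91 in Biq, 0.11 in A18 and -0.37 in Hab at 60 DAA, against -0.49, -0.53, -0.54 and -0.59 in the same order at 20 DAA. The part of seed RNA in the results was not tested. No gene name matched the words fixed for placenta.

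The 4 genes fell into one set of 3 that rose in every accession and 1 gene, chlorophyllase-2, that fell in 2 accessions and was not called in the other two. The STAY-GREEN-like gene, PAO and the P450 were each higher in every 60 DAA library than in any 20 DAA library, a pattern found in 15.7% of all genes, while 21.6% of all genes had every 60 DAA library below every 20 DAA library. Among all 16922 genes ordered by the rise averaged over accessions, the STAY-GREEN-like gene was in place 3, the P450 in place 9 and PAO in place 60. For the average stage change 13.2% of all genes were called higher and 21.5% lower at 60 DAA.

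**Figure D1:**
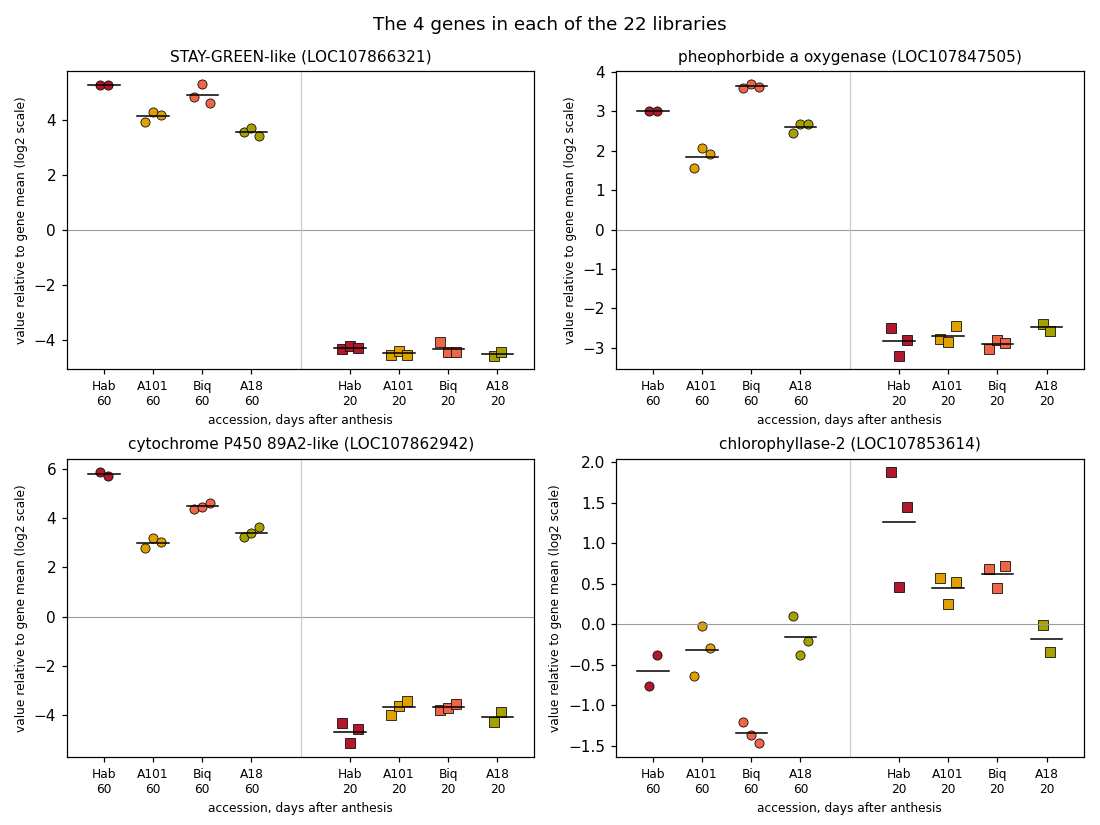
Values of the 4 genes in the 22 libraries, on the log2-like scale relative to each gene's mean (vertical axes differ between panels), by accession at 60 DAA on the left (circles) and 20 DAA on the right (squares); each point is a library and each bar a group mean. For the STAY-GREEN-like gene the 60 DAA libraries run from 3.42 to 5.30 and those of 20 DAA from -4.59 to -4.08, whereas the stages overlap for chlorophyllase-2.

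The STAY-GREEN-like gene carried the largest average change of the 4. In Hab it was 5.26 and 5.27 at 60 DAA, against -4.34, -4.25 and -4.30 at 20 DAA. In A101 it was 3.94, 4.29 and 4.17 at 60 DAA, against -4.55, -4.40 and -4.55 at 20 DAA. The Hab libraries at 60 DAA stood above all A101 libraries of that age, and the 20 DAA libraries of both accessions were within a narrow band. In Biq the values were 4.85, 5.30 and 4.63 at 60 DAA, against -4.08, -4.46 and -4.45 at 20 DAA. In A18 they were 3.57, 3.72 and 3.42 at 60 DAA, against -4.59 and -4.46 at 20 DAA. A18 thus held the lowest ripe values, and the gap between the lowest 60 DAA library and the highest 20 DAA library was 7.51.

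Its stage change was 9.56 ± 0.16 in Hab (SE, 2 libraries at 60 DAA and 3 at 20 DAA; limma adjusted p = 9.20e-19), 8.64 ± 0.14 in A101 (3 and 3; adjusted p = 8.66e-19), 9.26 ± 0.14 in Biq (3 and 3; adjusted p = 2.42e-19) and 8.10 ± 0.16 in A18 (3 and 2; adjusted p = 1.17e-17). The share of all genes called higher in the same comparison was 10.6% in A101 and 11.4% in A18, and 15.5% in Biq and 18.7% in Hab. Stage accounted for 98.8% of the gene's variation over the 22 libraries. At 20 DAA the accession means spanned 0.23, and the test over the 4 accessions did not pass (limma F, adjusted p = 0.405, where 53.9% of all genes passed).

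At 60 DAA the STAY-GREEN-like means spanned 1.69 and the accessions differed (limma F, adjusted p = 5.60e-08, where 78.3% of all genes passed). The order was Hab, Biq, A101, A18. Hab and Biq were 0.34 apart with overlapping libraries (limma adjusted p = 0.0910), and the difference had a 95% interval of 0.004 to 0.68. Biq exceeded A101 by 0.79 (limma adjusted p = 1.52e-04), and A101 exceeded A18 by 0.56 (limma adjusted p = 0.00596). As background for these comparisons at 60 DAA, the share of all genes that differed at an adjusted p under 0.05 was 59.3% between Hab and A101, 46.7% between Hab and Biq, 53.6% between Hab and A18, 51.5% between A101 and Biq, 29.9% between A101 and A18, and 45.2% between Biq and A18. At 20 DAA these shares were 33.4% between Hab and A101, 31.8% between Hab and Biq, 25.9% between Hab and A18, 35% between A101 and Biq, 9.99% between A101 and A18, and 29.6% between Biq and A18.

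PAO, whose reaction commits the pigment to loss of colour, changed in the same direction by a smaller amount. In Hab it was 3.01 and 3.01 at 60 DAA, against -2.48, -3.20 and -2.80 at 20 DAA. In A101 it was 1.56, 2.06 and 1.92 at 60 DAA, against -2.79, -2.86 and -2.45 at 20 DAA. A101 had the lowest ripe libraries for PAO, where A18 had them for the STAY-GREEN-like gene. In Biq the values were 3.59, 3.68 and 3.62 at 60 DAA, against -3.04, -2.80 and -2.87 at 20 DAA. In A18 they were 2.46, 2.68 and 2.67 at 60 DAA, against -2.39 and -2.57 at 20 DAA. All 3 Biq libraries at 60 DAA were above every other library, and the 20 DAA libraries of the 4 accessions were intermixed.

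The PAO stage change was 6.53 ± 0.16 in Biq (SE; limma adjusted p = 2.68e-17), 5.84 ± 0.17 in Hab (adjusted p = 8.20e-16), 5.08 ± 0.17 in A18 (adjusted p = 6.70e-15) and 4.54 ± 0.16 in A101 (adjusted p = 5.02e-15), with the library numbers given above. Accession means spanned 1.79 at 60 DAA (limma F, adjusted p = 9.78e-08) and 0.42 at 20 DAA, where the test did not pass (adjusted p = 0.169), although it passed when Hab library a at 20 DAA was left out and the span was 0.52. At 60 DAA Biq exceeded Hab by 0.62 (limma adjusted p = 0.00659) and A18 exceeded A101 by 0.76 (limma adjusted p = 0.00113). Hab and A18, neighbours in the order, were 0.41 apart and not separated by the test (limma adjusted p = 0.0553; 95% interval 0.04 to 0.77).

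The P450 89A2-like gene LOC107862942 had the widest span of accession means among the 4 genes at 60 DAA and the widest range of stage change, while at 20 DAA chlorophyllase-2 spanned more. In Hab it was 5.87 and 5.71 at 60 DAA, against -4.31, -5.15 and -4.58 at 20 DAA. In A101 it was 2.79, 3.18 and 3.03 at 60 DAA, against -3.99, -3.64 and -3.42 at 20 DAA. Hab was the highest accession at 60 DAA and the lowest at 20 DAA. In Biq the values were 4.38, 4.46 and 4.62 at 60 DAA, against -3.79, -3.70 and -3.56 at 20 DAA. In A18 they were 3.21, 3.39 and 3.63 at 60 DAA, against -4.27 and -3.87 at 20 DAA. No library of Hab or Biq at 60 DAA fell to the level of A101 or A18.

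Its stage change was 10.47 ± 0.21 in Hab (SE; limma adjusted p = 5.73e-18), 8.17 ± 0.19 in Biq (adjusted p = 1.39e-17), 7.48 ± 0.21 in A18 (adjusted p = 4.37e-16) and 6.68 ± 0.19 in A101 (adjusted p = 2.44e-16). Both ends contributed, since the means spanned 2.79 at 60 DAA (limma F, adjusted p = 4.01e-09) and 0.99 at 20 DAA (adjusted p = 4.58e-04). At 60 DAA Hab exceeded Biq by 1.30 (limma adjusted p = 4.93e-05) and Biq exceeded A18 by 1.08 (limma adjusted p = 1.01e-04), while A18 and A101 were 0.41 apart (limma adjusted p = 0.102; 95% interval 0.02 to 0.80). At 20 DAA A101 and Biq were 0.002 apart (limma adjusted p = 0.997; 95% interval -0.39 to 0.39), and Hab was below A18, by 0.61 (limma adjusted p = 0.0374).

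Chlorophyllase-2 followed another course. In Hab it was -0.77 and -0.38 at 60 DAA, against 1.88, 0.46 and 1.45 at 20 DAA. In Biq it was -1.20, -1.36 and -1.47 at 60 DAA, against 0.68, 0.45 and 0.72 at 20 DAA. In both red-fruited accessions the stages did not overlap. In A101 it was -0.64, -0.02 and -0.29 at 60 DAA, against 0.57, 0.26 and 0.53 at 20 DAA. In A18 it was 0.10, -0.38 and -0.20 at 60 DAA, against -0.01 and -0.34 at 20 DAA. The A101 libraries were apart by stage but close, and the A18 libraries of both ages were interleaved.

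Chlorophyllase-2 fell by 1.96 in Biq (SE 0.25; limma adjusted p = 7.48e-07) and fell by 1.83 in Hab (SE 0.28; limma adjusted p = 6.89e-06). The share of all genes called lower was 23.3% in Biq and 26% in Hab, and 19.7% in A101 and 20.6% in A18. In A101 the difference of -0.77 (SE 0.25; limma adjusted p = 0.0104) did not reach the minimum size, and leaving out one library at a time took its adjusted p to as high as 0.0588. In A18 it was 0.013 (SE 0.28; limma adjusted p = 0.972; 95% interval -0.57 to 0.60). The Hab change was -1.53 without library a at 20 DAA, the highest of that group, and -2.23 without library b, the one nearest to the ripe libraries. Between accessions, chlorophyllase-2 spanned 1.18 at 60 DAA (limma F, adjusted p = 0.00140) and 1.44 at 20 DAA (adjusted p = 0.00222). At 60 DAA the order was A18, A101, Hab, Biq, and of the neighbours only Biq was separated, lying 0.77 below Hab (limma adjusted p = 0.0301). At 20 DAA the order was Hab, Biq, A101, A18, and no neighbours were separated (limma adjusted p = 0.0556 for Hab over Biq, 0.645 for Biq over A101 and 0.204 for A101 over A18), although the ends of the order were. Averaged over accessions the gene fell by 1.14 (SE 0.13; limma adjusted p = 1.33e-07), but after quantile normalization of the libraries the average of -0.92 was under the minimum size (limma adjusted p = 1.32e-06).

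**Figure D2:**
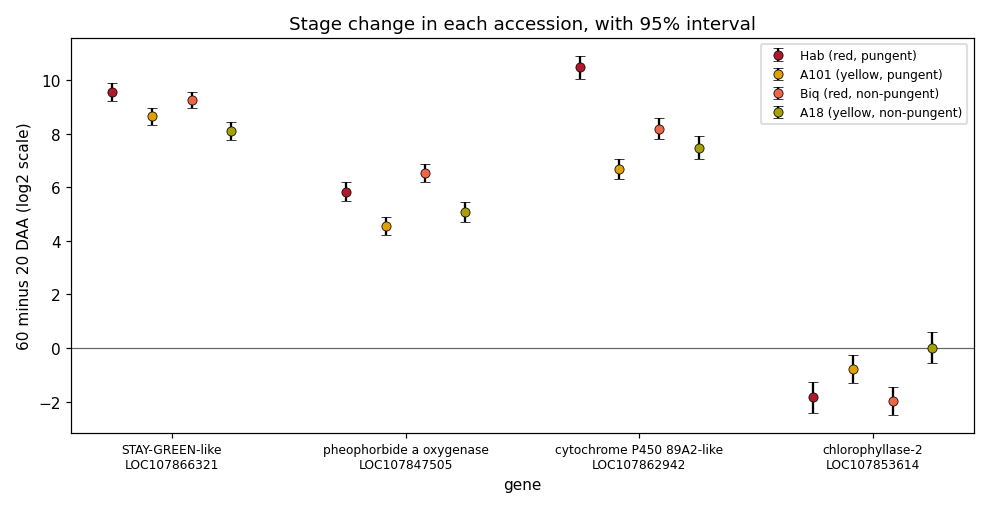
Stage change (60 minus 20 DAA, log2-like scale) of the 4 genes in each accession, with the 95% interval from limma. The P450 ranges from 6.68 in A101 to 10.47 in Hab, and chlorophyllase-2 is the only gene with values below 0, at -1.83 in Hab, -0.77 in A101 and -1.96 in Biq, with 0.013 in A18.

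The stage change itself differed between accessions for all 4 genes. The range over accessions was 3.79 for the P450 (limma F, adjusted p = 2.86e-08), 1.99 for PAO (adjusted p = 3.80e-06), 1.97 for chlorophyllase-2 (adjusted p = 4.76e-04) and 1.46 for the STAY-GREEN-like gene (adjusted p = 8.28e-05). Such differences were common, since 69.3% of all genes passed the same test. After quantile normalization the range was 2.03 for the P450 (limma F, adjusted p = 2.47e-06), 1.13 for PAO (adjusted p = 0.00122), 1.82 for chlorophyllase-2 (adjusted p = 0.00124) and 0.75 for the STAY-GREEN-like gene, for which the test did not pass (adjusted p = 0.0821). The order of the STAY-GREEN-like changes also turned, since Hab, the largest as deposited, became the smallest at 8.54, with 8.59 in A18, 9.15 in Biq and 9.29 in A101.

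The mean stage change of Hab and Biq, which ripen red, was set against that of A101 and A18, which ripen yellow. It was larger in the red accessions by 2.24 ± 0.20 for the P450 (SE; limma adjusted p = 6.48e-08), by 1.37 ± 0.17 for PAO (adjusted p = 2.56e-06) and by 1.04 ± 0.15 for the STAY-GREEN-like gene (adjusted p = 1.99e-05). For chlorophyllase-2 the red minus yellow difference was -1.52 ± 0.27 (SE; limma adjusted p = 1.12e-04), a larger fall in the red accessions. Of all genes, 6.38% were called with a positive difference and 4.63% with a negative one. The positive differences depended on which rescaling of the libraries was used. With library medians subtracted they kept their calls, at 2.268 for the P450, 1.401 for PAO and 1.07 for the STAY-GREEN-like gene. With quantile normalization they were 0.97 for the P450 (limma adjusted p = 3.88e-05), 0.52 for PAO (adjusted p = 0.0120) and -0.094 for the STAY-GREEN-like gene (adjusted p = 0.753), so that none reached the minimum size. That for chlorophyllase-2 was -1.29 (limma adjusted p = 4.60e-04) and kept its call.

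Quantile normalization gives every library the same set of values, and the 3 genes that rose lie at the ends of that set. Places here order genes by their values relative to their own means, not by expression level. At 60 DAA the STAY-GREEN-like gene was in place 13 from the top in both Hab libraries, 4 to 15 in Biq, 8 to 10 in A101 and 18 to 34 in A18. Over all genes the median stage change was -0.105 in Hab, the accession furthest from 0, and the changes were larger in the red accessions, with a median absolute size of 0.88 in Hab and 0.75 in Biq, and of 0.56 in A101 and 0.58 in A18. Under the same normalization the span of means at 60 DAA was 0.81 for the STAY-GREEN-like gene, 1.12 for PAO and 1.57 for the P450. The STAY-GREEN-like difference was also near the minimum size as deposited, at 0.95 without Biq library b at 60 DAA and 0.99 without A101 library a at 60 DAA.

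Between the pungent accessions (Hab and A101) and the non-pungent ones (Biq and A18), none of the 4 genes reached a difference of 1. The pungent minus non-pungent difference was 0.75 for the P450 (limma adjusted p = 0.0108), -0.62 for PAO (adjusted p = 0.0117), 0.42 for the STAY-GREEN-like gene (adjusted p = 0.0531) and -0.33 for chlorophyllase-2 (adjusted p = 0.405; 95% interval -0.88 to 0.23). Over all genes 1.65% were called with a positive and 1.8% with a negative difference.

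Other genes listed for the pathway were found by words in their annotation. With the 4 genes, 19 genes were listed, of which 12 rose and 3 fell in the average over accessions and 4 did not pass, and their median change was 1.18, against -0.085 over all genes. The shares of all genes that rose and fell in that average were 13.2% and 21.5%. Among the 19 were 7 P450 89A2-like genes, listed by family name alone, of which 6 rose and 1 fell. The list gave 9 rises and 5 falls in Hab, 10 and 2 in A101, 11 and 3 in Biq, and 11 and 2 in A18. Of all genes, 18.7% rose and 26% fell in Hab, and 10.6% and 19.7% in A101. In Biq these shares were 15.5% and 23.3%, and in A18 11.4% and 20.6%. Leaving aside the 4 genes, 9 of 15 rose and 2 fell.

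**Figure D3:**
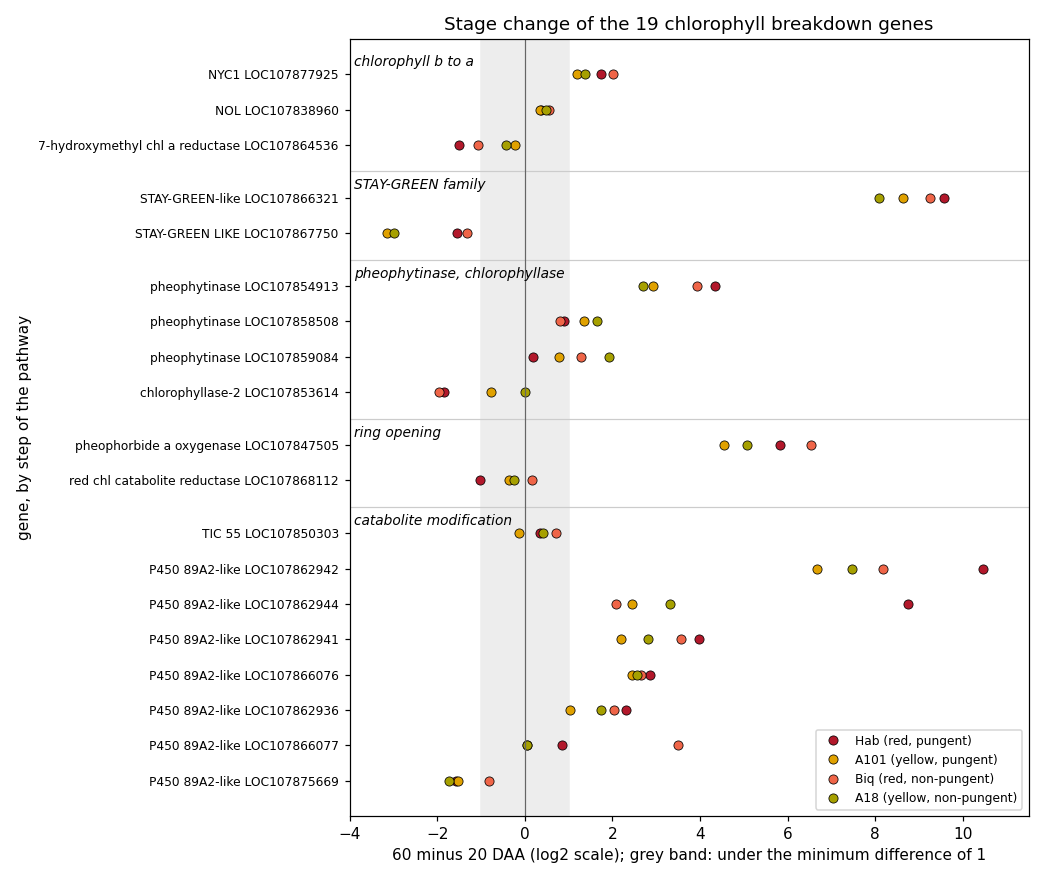
Stage change (60 minus 20 DAA, log2-like scale) of the 19 genes listed by name for chlorophyll breakdown, in rows grouped by the pathway step of that name, with 1 point per accession; the grey band marks changes smaller than 1. Large rises stand at the STAY-GREEN-like gene, a pheophytinase (LOC107854913), PAO and several P450 89A2-like genes, while the genes named STAY-GREEN LIKE and chlorophyllase-2 lie to the left.

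At the first step, NYC1 (LOC107877925), which starts the reduction of chlorophyll b, rose in all 4 accessions, from 1.20 in A101 to 2.02 in Biq (average 1.58 ± 0.05 SE; limma adjusted p = 2.81e-16). Its partner NOL (LOC107838960) averaged 0.44, under the minimum size. The third enzyme of that step, 7-hydroxymethyl chlorophyll a reductase (LOC107864536), fell by 1.51 in Hab and by 1.07 in Biq, and its differences of -0.22 in A101 and -0.42 in A18 were not called. The Biq fall lost its call after either rescaling of the libraries, at -0.97 with library medians subtracted and -0.86 with quantile normalization.

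Beside the STAY-GREEN-like gene, the table holds 1 gene named STAY-GREEN LIKE (LOC107867750), a related family whose Arabidopsis member acts on chlorophyllide and is not tied to senescence in the same way. It moved opposite to the STAY-GREEN-like gene and fell in every accession, with changes of -3.15 in A101, -2.99 in A18, -1.54 in Hab and -1.32 in Biq (average -2.25 ± 0.14 SE; limma adjusted p = 6.44e-12). Its 60 DAA libraries lay between -1.38 and -0.59 over all accessions and did not pass the test between accessions (limma F, adjusted p = 0.193). At 20 DAA the A101 libraries had 1.96, 2.15 and 1.72 and the A18 libraries 1.75 and 2.16, whereas Biq had 0.12, -0.22 and 0.006 and Hab had -0.077, 1.53 and 1.07. The red minus yellow difference was 1.64 ± 0.27 (SE; limma adjusted p = 7.54e-05), and most of it lay at 20 DAA, where the red accessions were lower.

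Phytol removal was represented by 3 genes annotated as pheophytinase and by chlorophyllase-2. They moved in opposite directions in the average over accessions, although not every change was called in each accession. Pheophytinase LOC107854913 rose by 4.34 in Hab and 3.93 in Biq, and by 2.93 in A101 and 2.70 in A18 (average 3.47 ± 0.08 SE; limma adjusted p = 1.28e-18), more in the red accessions, by 1.32 (limma adjusted p = 2.36e-06), and by 0.61 after quantile normalization, which is under the minimum size. The others rose on average by 1.18 (LOC107858508) and 1.05 (LOC107859084), and their red minus yellow differences had the opposite sign, at -0.66 (limma adjusted p = 7.88e-05) for LOC107858508 and -0.62 (adjusted p = 0.0441) for LOC107859084, under the minimum size. After quantile normalization that of LOC107858508 was called, at -1.04 (limma adjusted p = 3.52e-06). For LOC107859084 the average was under 1 when A18 library a or Hab library b at 20 DAA, or A18 library b at 60 DAA, was left out, at 0.98, 0.96 and 0.97. After ring opening by PAO, red chlorophyll catabolite reductase (LOC107868112) fell by 1.02 in Hab, and its values of -0.36 in A101, 0.17 in Biq and -0.24 in A18 were not called. The Hab value was -0.92 without Hab library a at 20 DAA, -0.91 with library medians subtracted and -0.73 with quantile normalization, each under the minimum size. TIC 55 (LOC107850303), whose Arabidopsis counterpart hydroxylates the catabolites, averaged 0.33 and was called in no accession.

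In all, 7 genes carried the name cytochrome P450 89A2-like, and 6 rose and 1 fell in the average. They were listed by the family name alone, and a role in chlorophyll breakdown was not tested. Genes with the same name can be near-identical, and the quantification divides reads that match several of them, so their separate values are uncertain. LOC107862942 had the largest average rise of the 7, at 8.20 ± 0.10 (SE; limma adjusted p = 1.91e-22). LOC107862941 averaged 3.14, LOC107866076 averaged 2.63 and LOC107862936 averaged 1.77, each with a rise in every accession, although LOC107862936 in A101, at 1.02, was under 1 with array weights (0.95) and without A101 library b at 60 DAA (0.90). LOC107875669 was the one that fell, by 1.41 on average, and 4 libraries shared its lowest value.

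A pair of these copies differed between accessions in a way the others did not share. LOC107862944 was 5.54 and 5.46 in Hab at 60 DAA, against -3.14, -3.62 and -3.01 at 20 DAA, a change of 8.76 ± 0.21 (SE; limma adjusted p = 4.80e-17). In Biq it was -1.97, -2.57 and -1.78 at 60 DAA, against -4.21, -4.21 and -4.16 at 20 DAA, a change of 2.09 ± 0.19 (SE; limma adjusted p = 5.24e-09). The Biq libraries at 60 DAA were thus below the A101 libraries at 20 DAA, which had 0.30, 0.11 and 0.54. LOC107866077 had the opposite pattern. It was 2.76, 3.03 and 3.13 in Biq at 60 DAA, against -0.53, -0.48 and -0.53 at 20 DAA, a change of 3.49 ± 0.10 (SE; limma adjusted p = 1.79e-16). Its change was 0.054 in A101, 0.055 in A18 and 0.86 in Hab, where all 3 libraries at 20 DAA were at the gene's lowest value of -0.85.

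**Figure D4:**
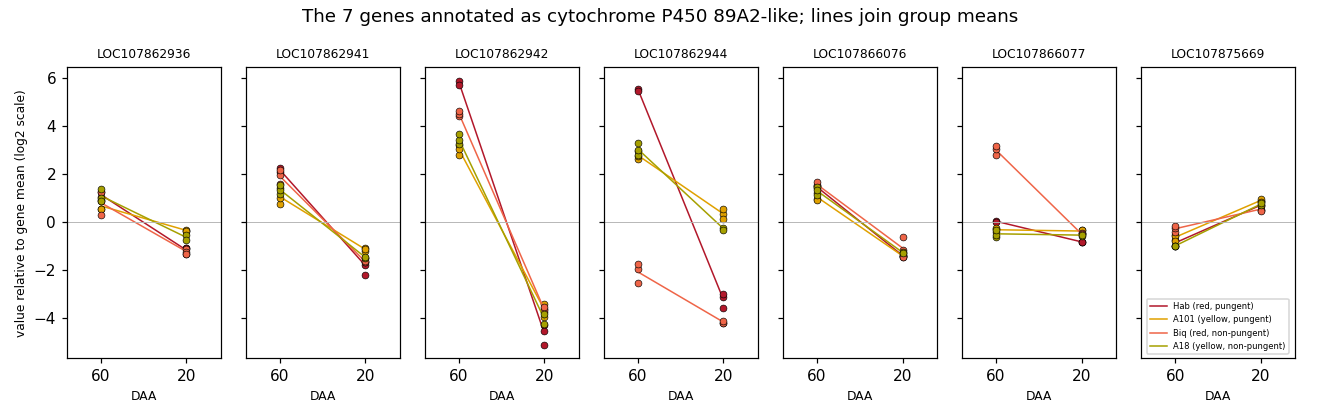
Values of the 7 genes named cytochrome P450 89A2-like (log2-like scale relative to each gene's mean) at 60 DAA on the left and 20 DAA on the right of each panel; points are libraries and lines join the group means of an accession. LOC107862942 spans from -5.15 to 5.87, LOC107862944 stands lowest in Biq at both ages, and LOC107866077 is high only in the 3 Biq libraries at 60 DAA among the 22.

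Across the 19 genes, 8 had a larger and 1 a smaller stage change in the red than in the yellow accessions by the same threshold, against 6.38% and 4.63% of all genes. These were the STAY-GREEN-like gene, STAY-GREEN LIKE, PAO, pheophytinase LOC107854913 and the P450 copies LOC107862941, LOC107862942, LOC107862944 and LOC107866077 on the positive side, and chlorophyllase-2 on the negative side. For STAY-GREEN LIKE the positive sign stands for a smaller fall. The separate values of the P450 copies are uncertain, as stated above, and an effect of the red-fruited reference was not tested. Leaving aside the 4 genes, 5 of 15 were past the threshold on the positive side and 0 on the negative side. After quantile normalization 3 genes were past the threshold on the positive side (STAY-GREEN LIKE, LOC107862944 and LOC107866077) and 2 on the negative side (chlorophyllase-2 and pheophytinase LOC107858508), against 4.75% and 4.3% of all genes, and LOC107862941 was at 0.65.

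Genes of neighbouring processes were counted in the same way. Of 29 genes of chlorophyll synthesis, 3 rose and 10 fell on average (median -0.44). Of 26 genes of chlorophyll a-b binding proteins, which hold the pigment in the antenna, 22 fell and 0 rose by the threshold (median -2.53). Among them, LOC107845349 rose on average by 0.573 (limma adjusted p = 1.54e-05), under the minimum size. It was called higher in Biq alone, at 1.695 (limma adjusted p = 6.33e-08). Of 5 genes of phytol recycling and tocopherol synthesis, which use the phytol tail released in breakdown, 3 rose and 1 fell (median 1.14). All genes together gave 2238 rises and 3632 falls, 38.1% of the calls being rises, against 48.6% after quantile normalization. In A101 this share was 35.1% as deposited and 48.8% after quantile normalization, and in A18 35.5% and 48.0%.

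**Figure D5:**
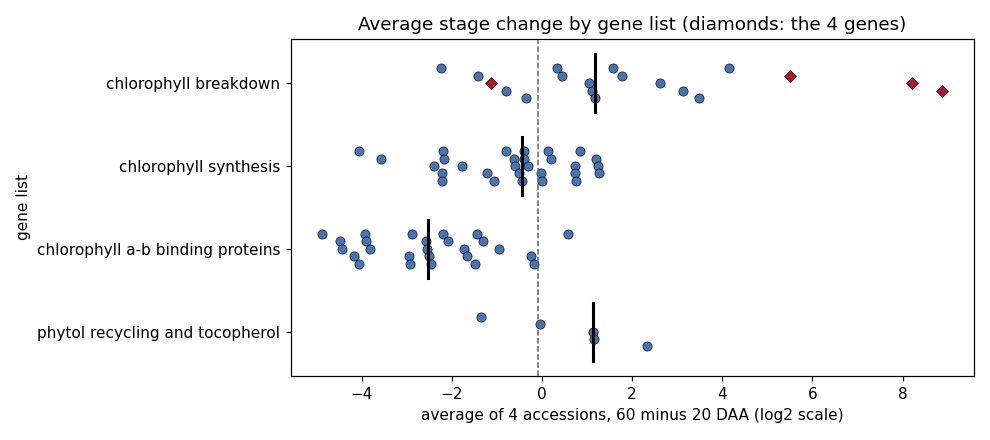
Average stage change over the 4 accessions (60 minus 20 DAA, log2-like scale) of each gene in 4 lists; diamonds are the 4 genes described here, short vertical bars the list medians and the dashed line the median of all genes (-0.085). The breakdown list has its median at 1.18 and the chlorophyll a-b binding proteins at -2.53.

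The genes whose 8 group means were nearest to those of each of the 4 genes were found by the root mean square difference. Nearest to the STAY-GREEN-like gene were a peroxisomal benzoate--CoA ligase-like gene (LOC107869830, 0.27), a 60S ribosomal protein L10-like gene (LOC107877503, 0.27) and pathogenesis-related protein R major form (LOC107851248, 0.38). For the P450 they were LOC107869830 (0.53), extensin-1-like (LOC107867675, 0.56) and LOC107877503 (0.56). For PAO they were bifunctional epoxide hydrolase 2-like (LOC107850369, 0.29), cytochrome P450 71A1-like (LOC107871074, 0.30) and a universal stress protein A-like gene (LOC107853972, 0.32). For chlorophyllase-2 they were a mitochondrial pentatricopeptide repeat-containing protein (LOC107859642, 0.19), a putative late blight resistance protein homolog (LOC107873743, 0.21) and the kinase ATM (LOC107862525, 0.25). Of the 22 libraries, 8 were at the lowest value of LOC107851248 and 3 at that of LOC107869830, so their low values are uncertain. Among the 4 genes, the STAY-GREEN-like gene and the P450 were the nearest pair, at 0.64, and either was further from PAO, at 1.75 for the STAY-GREEN-like gene and 1.5 for the P450.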

How the data were processed

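RNA-seq of fruit pericarp was analysed in 22 libraries of 4 *Capsicum chinense* accessions at 20 and 60 DAA. Per the study's methods and the submitters' processing notes, trimming by the authors used fastp 0.23.1, quantification used Salmon 1.6.0 and the *C. annuum* Zunla-1 reference, and gene-level values were made in R 4.2.0 with DESeq2 1.36.0. The deposited values are variance-stabilized on a log2-like scale and centred on the mean of each gene, so low counts are compressed and no further filter on low values or depth per library could be applied (1290 genes have 3 or more libraries at their lowest value). The study states that its 16922 genes had passed a minimum read count. Column names give the accession and stage but no replicate number, and no sequencing batch is given in the sources used here. Groups came from the sample labels, and colour and pungency from the study's description of the accessions. A mean per group was fitted to all 16922 genes with limma 3.58.1 in R 4.3.3, with contrasts for the stage change in each accession, its average, its differences between accessions, and levels within a stage, and with Benjamini-Hochberg adjustment over all genes. Calls needed an adjusted p under 0.05 and, except for the F tests and pairs within a stage, a difference of at least 1. The fit was tested on simulated data. Each library was left out in turn, and the fit was also repeated per accession, with array weights, with robust eBayes, with no minimum difference, and after rescaling by quantiles or by library medians. The 4 genes, the gene lists and the rule for named genes (every gene of the breakdown list, the 3 largest rises and falls of the other lists, and the 3 genes most alike) were chosen with earlier results of these data known. Sequences and genome positions were not used here. Figures were drawn with matplotlib 3.10.9.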

Additional observations from a re-analysis of the deposited data

Results flagged for a closer look

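The stage change (60 minus 20 DAA) of all 4 genes differed between accessions by the test of the difference itself, with a range over accessions of 3.79 for the P450 LOC107862942, 1.99 for PAO LOC107847505, 1.97 for chlorophyllase-2 LOC107853614 and 1.46 for the STAY-GREEN-like gene LOC107866321 (limma F over the 4 accessions). The same F test passed for 69.3% of all genes. The red minus yellow test called 6.38% of all genes positive and 4.63% negative. It passed for the 4 genes at 2.24, 1.37, -1.52 and 1.04 in the same order. After quantile normalization these were 0.97, 0.52, -1.29 and -0.094, and only chlorophyllase-2 kept its call. The F test of the STAY-GREEN-like gene then did not pass (limma F, adjusted p = 0.0821). As deposited, the red minus yellow test also passed for pheophytinase LOC107854913 (1.32, and 0.61 without a call after quantile normalization), STAY-GREEN LIKE LOC107867750 (1.64), and the P450 89A2-like genes LOC107862941 (1.26, and 0.65 without a call after quantile normalization), LOC107862944 (2.55) and LOC107866077 (2.12).

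Over all genes, 1.65% were called with a positive and 1.8% with a negative pungent minus non-pungent difference. The pungent minus non-pungent test passed for LOC107862944 (2.90), LOC107866077 (-1.32) and pheophytinase LOC107859084 (-1.13), the last of which was -0.99 without A18 library a at 20 DAA, without Hab library a at 20 DAA or without A18 library b at 60 DAA. For LOC107862944 the value rests on Hab, which changed by 8.76 while the others changed by 2.44 in A101, 2.09 in Biq and 3.31 in A18, and for LOC107866077 it rests on Biq. With 2 to 3 libraries per group, single libraries were not screened for outlying values.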

How the results depend on the processing

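No paired analysis was possible because the columns of the deposited table carry no replicate numbers, although the study's methods describe randomized blocks. Robust estimation and fits on one accession alone changed no call and no count by over 1.5 times, and with array weights only LOC107862936 in A101 lost its call (0.95). Subtracting library medians changed 3 calls of single genes, for 7-hydroxymethyl chlorophyll a reductase LOC107864536 in Biq (-0.97), red chlorophyll catabolite reductase LOC107868112 in Hab (-0.91) and pheophytinase LOC107858508 in Hab (1.01). Rises of the STAY-GREEN-like gene, PAO and the P450 kept their call in every accession under all alternatives. Quantile normalization turned the STAY-GREEN-like red minus yellow difference to -0.094, reduced its range over accessions to 0.75, took the red minus yellow difference of PAO to 0.52 and of the P450 to 0.97 and the average of chlorophyllase-2 to -0.92, and gave 3 positive and 2 negative red minus yellow calls in the breakdown list. Without a minimum difference, chlorophyllase-2 in A101 was called at -0.77, all genes gave 6750 rises and 7927 falls on average, and the breakdown list had 5 average falls and 4 negative red minus yellow calls. Leaving out one library moved the STAY-GREEN-like red minus yellow difference between 0.95 and 1.11, the PAO span at 20 DAA between 0.34 and 0.52 and the number of negative red minus yellow calls in the breakdown list between 1 and 2. That number was 2 without Hab library b at 20 DAA, A18 library c at 60 DAA or Hab library b at 60 DAA, the added gene being 7-hydroxymethyl chlorophyll a reductase LOC107864536. Where 1 library was left in Hab at 60 DAA or A18 at 20 DAA, it is assumed to vary like the other groups. Of 4356 values recomputed with a library left out, 4336 kept their direction and call, or for counts stayed within 1.5 times. The cause of these changes was not tested. Depth cannot be read from the values used here, so what limits low genes cannot be given. Library sizes are shown in a figure of the study and were not used.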

Other observations

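Within the lists around chlorophyll breakdown, the chlorophyll a-b binding proteins fell less in the accessions that ripen red, where they were lower at 20 DAA. Averaged over the 26 genes, the level at 60 DAA was -1.72 in Hab and -1.43 in Biq, and -1.20 in A101 and -0.51 in A18, against 0.45, -0.44, 2.49 and 2.69 in the same order at 20 DAA. Of 26 genes, 20 had a positive and 3 a negative red minus yellow difference past the threshold by limma (median 1.85, against 0.033 over all genes, of which 6.38% and 4.63% were called), and after quantile normalization 21 and 2. The number that fell was 13 in Biq and 19 in Hab, and 23 in both A101 and A18, where the share of all genes that fell was 23.3%, 26%, 19.7% and 20.6%. The antenna protein gene LOC107855779 (1B-like) fell by 4.88 on average, with -3.48 in Hab and -2.07 in Biq, and -6.83 in A101 and -7.13 in A18. LOC107855780 (21-like) had -2.22, -1.67, -6.90 and -6.94 in the same order. LOC107855767 (1B-like) had -5.29 in Hab and -0.78 in Biq, so the red accessions differed from each other as well.

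Among genes of chlorophyll synthesis, the largest average falls were those of a protochlorophyllide reductase-like gene (LOC107845435, -4.05, which catalyses the light-dependent step), geranylgeranyl diphosphate reductase (LOC107862250, -3.57, which provides the phytyl chain) and magnesium-protoporphyrin IX monomethyl ester cyclase (LOC107844048, -2.41). The 3 that rose were chlorophyll synthase (LOC107842693, 1.25), delta-aminolevulinic acid dehydratase (LOC107856090, 1.23) and porphobilinogen deaminase (LOC107878895, 1.19). In the phytol and tocopherol list, tocopherol cyclase (LOC107839135) rose by 2.33 with values between 2.27 and 2.40 in the 4 accessions, phytol kinase (LOC107863604) by 1.15 and tocopherol O-methyltransferase (LOC107870898) by 1.14, and 2-carboxy-1,4-naphthoquinone phytyltransferase (LOC107840062), which acts in phylloquinone synthesis, fell, with values between -1.99 and -0.78.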
